A study of Homo sapiens with 9 samples.

Results

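The collagen chain genes are the protein-coding genes whose symbol reads COL, a number, A and a number, with 1 such gene set aside by the selection rule. The rule found 43 genes among the 61541 gene identifiers of the count tables, 19878 of which are protein-coding, and it used no measured value. They were measured by RNA sequencing in H69 cells, an immortalised human cholangiocyte line, that is, a line of the epithelium that lines bile ducts. The libraries were 9, and all came from the same wild-type line, so that the groups do not differ by an engineered change. The 3 Ctrl libraries came from cells given 10 µl of DMSO as vehicle. The 3 Acetazolamide libraries came from cells given 10 µM of this carbonic anhydrase inhibitor. The 3 Laminin511-E8 libraries came from cells given 0.25 µg/cm2 of the recombinant integrin-binding fragment of a laminin, a basement membrane protein. No volume of DMSO is listed for the Acetazolamide and Laminin511-E8 groups. A difference in vehicle and the treatment therefore cannot be told apart in the comparisons with Ctrl. In every group 100000 cells were seeded, grown for 48 hours to confluency and then treated for 48 hours, with a change of medium after 24 hours. For each group the samples with the best RNA integrity were sequenced, and all 9 libraries stem from 1 immortalised line in culture, without stroma, bile or flow.

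Collagens are secreted or membrane-bound proteins in which 3 chains wind into a triple helix, and each chain carries glycine in a steady repeat, with 2 residues between, because no larger side chain has room at the centre of the helix. Fibrillar collagens form the fibrils of stroma, type IV collagens form the sheet-like network of basement membranes on which epithelia such as the bile duct lining rest, and FACITs (fibril-associated collagens with interrupted helices) attach to the surface of fibrils. A chain without its partners often cannot leave the cell, since many collagens are heterotrimers. In the liver, fibrillar collagen is known mainly as a product of stellate cells and portal fibroblasts.

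The glycine repeat is visible in the transcripts themselves, and the stretches printed here let the classes be compared. The longest unbroken series of triplets GGN, the codons of glycine, with 2 codons between them was searched in the longest coding transcript of each gene in the GENCODE 29 annotation. All 43 genes held a series of at least 20 such triplets, against 25 of 19641 other protein-coding genes (0.127%). The longest series ranged from 23 triplets in COL26A1 to 343 in COL3A1, with a median of 61. The lines below give the first 10 triplets of the series in COL1A1 and COL5A2, chains of fibrils, in COL4A4, a chain of basement membranes, and in COL12A1, a FACIT, with the GGN codons in capitals.
COL1A1: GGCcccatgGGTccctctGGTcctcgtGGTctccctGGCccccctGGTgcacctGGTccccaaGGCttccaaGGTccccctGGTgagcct
COL5A2: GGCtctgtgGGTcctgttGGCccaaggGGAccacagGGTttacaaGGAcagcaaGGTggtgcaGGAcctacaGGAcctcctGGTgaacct
COL4A4: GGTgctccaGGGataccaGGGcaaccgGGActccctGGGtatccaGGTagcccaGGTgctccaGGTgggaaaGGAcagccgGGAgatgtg
COL12A1: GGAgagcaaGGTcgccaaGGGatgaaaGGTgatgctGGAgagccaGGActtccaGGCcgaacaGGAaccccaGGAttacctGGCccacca
The whole series held 338 triplets in COL1A1 and 339 in COL5A2, whereas it held 45 in COL4A4 and 32 in COL12A1, whose helices are broken by interruptions or by long non-collagenous parts. Among the 11 fibrillar genes, 9 held 337 to 343 triplets, and COL24A1 and COL27A1 held 216 and 217. The 6 type IV genes held 38 to 66.

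**Figure D1:**
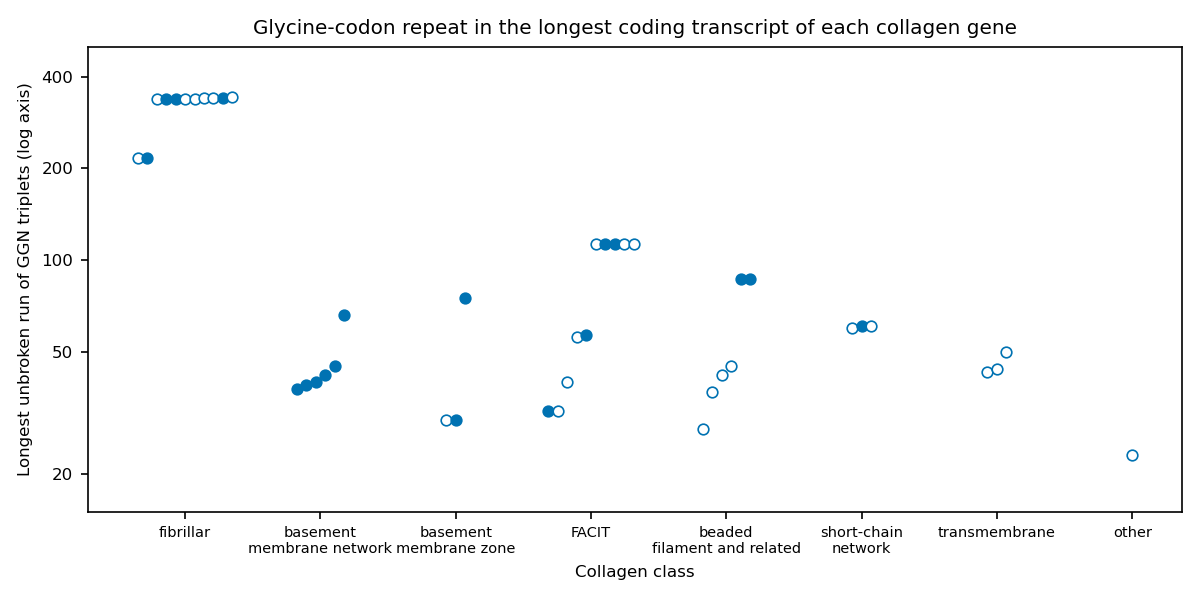
Longest unbroken series of GGN triplets with 2 codons between them (y axis, log scale, number of triplets) in each of the 43 collagen genes, by class (x axis). Filled points mark the 19 genes that reached 10 counts in each Ctrl library and open points the others, and 9 of the 11 fibrillar genes lie between 337 and 343 triplets while the 6 type IV genes lie between 38 and 66.

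A gene's level is given as CPM (counts scaled to a common library total) divided by the kilobases covered by its exons, so that genes of unequal length can be compared. In Ctrl, 19 of the 43 genes had at least 10 counts in every library. COL6A3 and COL8A2 also passed the filter on low counts, which left 21 genes for the tests. Of the other 22 genes, 5 had 38 to 83 counts in the 9 libraries together, 13 had 1 to 20, and 4 (COL3A1, COL6A5, COL6A6 and COL11A2) had 0 counts among the 215830470 counts of all libraries. The 19 genes included 4 of 11 fibrillar genes, all 6 type IV genes, 2 of 3 genes of the basement membrane zone, 4 of 10 FACIT genes, 2 of 6 genes of type VI and related collagens and 1 of 3 short-chain genes, and none of the 3 transmembrane genes reached this count. All 43 genes together took 1824, 1655 and 1965 CPM in Ctrl, 1818, 1582 and 2010 CPM in Acetazolamide and 1667, 1966 and 1694 CPM in Laminin511-E8, so that the 3 groups overlapped.

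**Figure D2:**
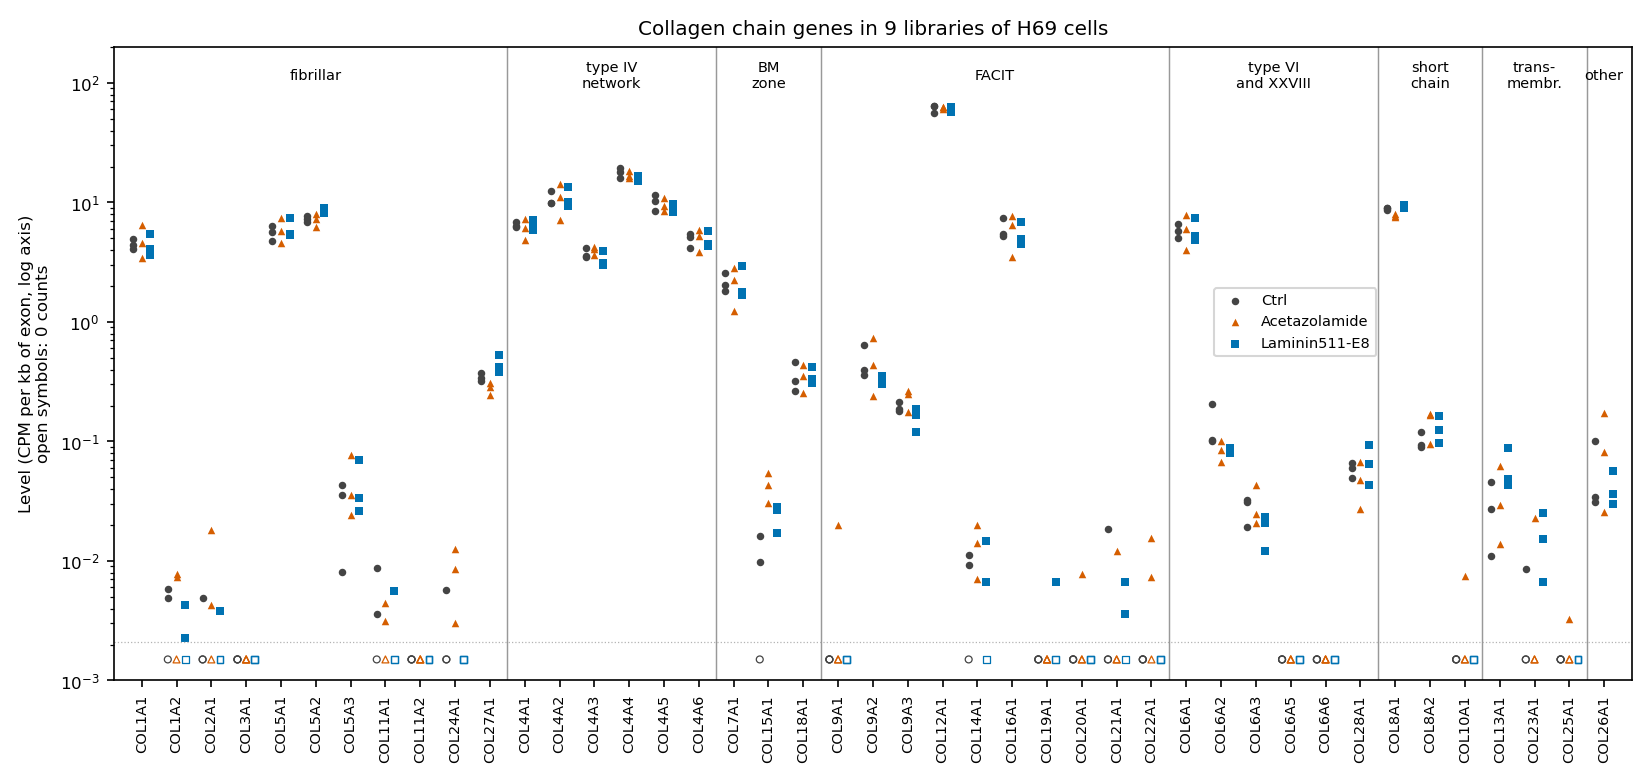
Level of each of the 43 collagen genes (x axis, grouped by class) in 9 libraries (y axis, CPM per kb of exon, log scale), with Ctrl as circles, Acetazolamide as triangles, Laminin511-E8 as squares and 0 counts as open symbols at the bottom. COL12A1 lies above all others in every library, all 6 type IV genes are above 0 in every library with COL4A3 lowest at 2.98, and COL3A1, COL6A5, COL6A6 and COL11A2 are at 0 throughout.

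COL12A1, which encodes a large FACIT of fibril surfaces, had the highest level of all collagen genes. Its level was 64.15, 55.99 and 63.6 CPM per kb in Ctrl, 62.5, 60.9 and 62.8 in Acetazolamide, and 58.7, 63.2 and 57.4 in Laminin511-E8. The 3 groups overlapped, and all 9 values lay within a narrow band. The Ctrl mean was 61.2 ± 4.56 CPM per kb (SD, n = 3), which made up 39.05% of the summed level of the 43 genes, and 30.0% where the length of 1 transcript was used in place of all exons. Ctrl replicate 2, with the lowest value, had 16.25% mitochondrial counts, against 10.37% and 10.0% in Ctrl replicates 1 and 3. With TMM scaling the Ctrl mean was 62.5 ± 2.54 CPM per kb. By CPM it stood at the 99.2nd percentile of all genes that reached 10 counts in each Ctrl library. The other FACIT genes were lower. COL16A1 was at 5.40, 5.21 and 7.43 CPM per kb in Ctrl, and the cartilage collagen genes COL9A2 (0.362, 0.399 and 0.6435) and COL9A3 (0.188, 0.213 and 0.181) were lower still. COL9A3 had 198 counts, and 45 bases of its exons overlap TCFL5 on the opposite strand, which had 8980 counts, and in these bases the reads of the 2 genes cannot be told apart without a known strand setting. The partner of the latter pair in type IX collagen, COL9A1, had 5 counts, all in Acetazolamide replicate 1.

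All 6 genes of the type IV network were detected in every library and together made up 34.2% ± 0.781 (SD, n = 3) of the summed Ctrl level, or 43.0% by transcript length. COL4A4 was at 17.9, 16.1 and 19.3 CPM per kb in Ctrl, 16.6, 16.2 and 18.3 in Acetazolamide, and 15.2, 16.5 and 15.8 in Laminin511-E8. COL4A2 was at 9.99, 9.84 and 12.5 in Ctrl, 11.1, 7.09 and 14.3 in Acetazolamide, and 9.36, 13.5 and 10.1 in Laminin511-E8. COL4A5 was at 10.3, 8.46 and 11.5 in Ctrl, 9.305, 8.49 and 10.9 in Acetazolamide, and 8.73, 9.67 and 8.245 in Laminin511-E8. For COL4A2 the lowest and the highest value both came from the Acetazolamide group, replicates 2 and 3. In Ctrl, COL4A1 was at 6.32, 6.25 and 6.80, COL4A6 at 5.09, 4.18 and 5.44, and COL4A3 at 3.49, 3.54 and 4.12 CPM per kb.

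The type IV genes lie in 3 head-to-head pairs, COL4A1 with COL4A2 on chromosome 13, COL4A4 with COL4A3 on chromosome 2, and COL4A6 with COL4A5 on the X chromosome. In the RefSeq start sites (GRCh38.p14) the starts of these pairs lay 127, 419 and 380 bases apart, and the windows of 300 bases around them (250 before and 50 after the start) shared 226, 82 and 121 bases. Because each pair is read outwards from a common region, 1 window of each pair is shown, 5′ to 3′ on the strand of the named gene, with CCAAT and its reverse complement ATTGG in capitals.
COL4A2, chr13:110307034-110307333, plus strand: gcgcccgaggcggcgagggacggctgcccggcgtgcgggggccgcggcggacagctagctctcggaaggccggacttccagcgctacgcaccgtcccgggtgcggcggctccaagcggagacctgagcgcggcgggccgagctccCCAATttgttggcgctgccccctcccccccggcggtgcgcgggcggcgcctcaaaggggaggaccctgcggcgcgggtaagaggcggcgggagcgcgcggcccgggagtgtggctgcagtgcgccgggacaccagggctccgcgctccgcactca
COL4A4, chr2:227164156-227164455, minus strand: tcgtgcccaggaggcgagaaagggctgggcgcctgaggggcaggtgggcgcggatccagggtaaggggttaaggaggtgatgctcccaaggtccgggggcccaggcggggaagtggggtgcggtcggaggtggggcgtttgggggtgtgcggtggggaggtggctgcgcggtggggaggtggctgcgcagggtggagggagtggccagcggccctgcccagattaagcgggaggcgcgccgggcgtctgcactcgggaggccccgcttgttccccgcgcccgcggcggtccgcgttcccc
COL4A5, chrX:108439588-108439887, plus strand: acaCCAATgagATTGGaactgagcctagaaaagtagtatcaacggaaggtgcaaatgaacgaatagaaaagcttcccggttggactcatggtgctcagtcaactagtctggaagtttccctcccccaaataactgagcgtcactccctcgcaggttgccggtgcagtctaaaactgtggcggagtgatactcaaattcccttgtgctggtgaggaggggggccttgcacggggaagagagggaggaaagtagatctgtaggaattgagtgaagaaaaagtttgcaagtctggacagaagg
A CCAAT on either strand was found once in the COL4A2 window, 2 times as a facing pair in the COL4A5 window and not in the COL4A4 window. Such a match was held by 9 of the 31 collagen genes with a RefSeq window and by 35.7% of the windows of all 27305 symbols. GGGCGG or its reverse complement, the GC box, was held by 18 of the 31 and by 44.6% of all windows, and TATAAA on either strand by 4 of the 31 and 12.0% of all. The GC content was 77.7% in the COL4A2 window, 74.0% in the COL4A4 window and 49.3% in the COL4A5 window, against a median of 58.3% over all windows. The collagen genes without a window were COL1A1, COL1A2, COL2A1, COL3A1, COL5A2, COL6A1, COL6A5, COL8A1, COL9A3, COL14A1, COL20A1 and COL22A1.

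Genes of a head-to-head pair differed in level in the same direction in all 9 libraries. The level of COL4A2 was 1.66 ± 0.148 times that of COL4A1 in Ctrl (SD, n = 3), with a range of 1.46 to 1.96 over all libraries. The level of COL4A4 was 4.78 ± 0.304 times that of COL4A3, with a range of 4.105 to 5.32, and part of the COL4A3 exons (120 bases) overlaps the antisense gene MFF-DT, which had 551 counts. The level of COL4A5 was 2.06 times that of COL4A6 (SD 0.05), with a range of 1.675 to 2.22. By transcript length these 3 ratios were 2.22, 4.27 and 2.74 in Ctrl, in the same order of pairs. COL4A3, COL4A4 and COL4A5 encode the 3 chains of 1 known network, and COL4A5 was at 0.567 ± 0.0355 of the COL4A4 level by exon length but at 1.03 ± 0.0645 by transcript length, so the order of these 2 genes was not settled.

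The fibrillar genes showed an uneven set of chains. COL1A1, which encodes the main chain of type I collagen, was at 4.41, 4.09 and 4.90 CPM per kb in Ctrl, 4.55, 3.44 and 6.42 in Acetazolamide, and 3.66, 5.465 and 4.07 in Laminin511-E8. Its partner COL1A2 had 2, 1 and 0 counts in Ctrl and 10 counts in the 9 libraries together, against 9448 counts for COL1A1. Per length of exon, the summed counts gave a ratio of 1073 (exact 95% interval 583.4 to 2239, which covers counting error only). In the libraries with a COL1A2 count above 0, the ratio ran from 472.1 to 1796 by exon length. By transcript length it ran from 334.2 to 1272. COL3A1, which encodes the chain of type III collagen and lies beside COL5A2 on chromosome 2, had 0 counts in every library, and a count of 0 allows up to 0.0759 CPM in the deepest library and 0.239 CPM in the shallowest. Type V collagen, which starts fibrils, had both of its main chains, with COL5A2 at 7.26, 6.84 and 7.65 and COL5A1 at 5.67, 4.80 and 6.41 CPM per kb in Ctrl. The level of COL5A2 was 1.30 ± 0.117 times that of COL5A1 in Ctrl and 1.035 ± 0.0932 times by transcript length. COL27A1 was at 0.323, 0.376 and 0.337 CPM per kb in Ctrl.

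Type VI and type VIII collagens showed the same unevenness. COL6A1 and COL6A2 lie near each other on chromosome 21 and encode chains that assemble together with that of COL6A3. COL6A1 had 6572 counts in the 9 libraries, COL6A2 had 110 and COL6A3 had 104, so that the ratio per length of exon was 60.2 (exact 95% interval 49.9 to 73.4) to COL6A2 and 232 (191 to 285) to COL6A3. These intervals cover counting error only, not the choice of length. The mean ratio in Ctrl was 46.1 by exon length and 37.4 by transcript length to COL6A2. To COL6A3 it was 221 by exon length and 152 by transcript length. In Ctrl the level of COL6A1 was 5.08, 5.72 and 6.63 CPM per kb and that of COL6A2 was 0.1025, 0.101 and 0.2075. COL8A1, whose short chains form lattices, had 17594 counts, and its partner COL8A2 had 126, a ratio per length of exon of 69.3 (58.2 to 83.3). The mean ratio in Ctrl was 89.6 by exon length and 148 by transcript length. COL8A1 was at 9.01, 8.66 and 9.07 CPM per kb in Ctrl.

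Genes of the basement membrane zone outside type IV were lower. COL7A1, which encodes the anchoring fibrils that tie basement membrane to stroma, was at 1.83, 2.03 and 2.58 CPM per kb in Ctrl. COL18A1, the source of endostatin, was at 0.263, 0.318 and 0.459, and 1401 bases of its exons overlap SLC19A1 on the opposite strand. SLC19A1 had 3027 counts against 635 for COL18A1. In the shared bases, out of 8525 exon bases of COL18A1, the 2 genes' reads cannot be told apart without a known strand setting. COL15A1 had 38 counts in the 9 libraries.

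In the order of the Ctrl levels, COL12A1 stood apart from COL4A4, and COL4A4 from COL4A2, with no overlap between their 3 libraries. COL4A2 and COL4A5 overlapped, as did COL4A5 and COL8A1, whereas all 3 values of COL4A2 lay above those of COL8A1. COL8A1 and COL5A2 did not overlap, nor did COL5A2 and COL4A1. The following neighbours overlapped, from COL4A1 through COL16A1, COL6A1, COL5A1, COL4A6 and COL1A1 to COL4A3. COL4A3 lay above COL7A1 and COL7A1 above COL9A2, while COL9A2, COL18A1 and COL27A1 overlapped, COL27A1 lay above COL9A3, and COL9A3 and COL6A2 overlapped. By transcript length 4 neighbouring pairs changed places, COL4A4 with COL4A2, COL5A2 with COL4A1, COL6A1 with COL5A1, and COL18A1 with COL27A1. The 0 of COL11A2 cannot be read as its level, because none of its 20 nearest genes had 1000 counts and even RPS18, a ribosomal protein gene of that region, had 44.

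Markers of other cells were examined beside these levels. Of the 15 markers of fibroblasts and stellate cells, 8 reached 10 counts in each Ctrl library. These were THY1, TWIST1, PDPN, ACTA2, PDGFRB, LRAT, FAP and RGS5. THY1 was at 62.3 ± 6.64 CPM and TWIST1 at 18.1 ± 0.999 CPM in Ctrl (SD, n = 3). Of the markers below that count, 3 (LUM, POSTN and TWIST2) were at 0, DCN had 28 counts and PDGFRA 25. The summed level of the 15 markers was 108.7 to 121.6 CPM in Ctrl, 103.7 to 134 in Acetazolamide and 111.8 to 137.2 in Laminin511-E8. The cholangiocyte keratins KRT7 (1336 ± 180.8 CPM) and KRT19 (603.9 ± 76.8 CPM) were high in Ctrl, but SPP1 was at 0, CFTR had 3 counts and AQP1 had 9, so the label of cholangiocyte rests on the keratins, CD24 and EPCAM. Of 10 endothelial markers, 3 reached 10 counts in each Ctrl library (KDR, CLDN5 and PECAM1, with 344, 269 and 191 counts in the 9 libraries together) and 2 were at 0, among them CDH5. The summed level of these markers was 3.20 to 4.23 CPM in Ctrl, 3.99 to 4.67 in Acetazolamide and 3.32 to 4.69 in Laminin511-E8. Of 10 hepatocyte markers, 1 reached that count, SERPINA1 with 5298 counts, while ALB had 1 count and TTR and APOA1 were at 0, and the summed level was 19.95 to 24.65, 17.6 to 26.4 and 25.05 to 34.7 CPM in the same order of groups. Of 8 leukocyte markers, 1 reached it, CD14 with 1146 counts, while PTPRC had 4 counts and CD3E was at 0, and the summed level was 4.50 to 6.54, 4.23 to 9.64 and 5.01 to 9.33 CPM. The part of such cells in the collagen values was not tested. In bulk samples, a lower share of cells that use a gene and less RNA per cell cannot be told apart.

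Whether acetazolamide changed collagen expression was asked with edgeR's quasi-likelihood test across all 15997 genes that passed the filter, with Benjamini-Hochberg adjustment. Of the 21 collagen genes tested, 0 passed at an adjusted p of 0.05 with edgeR, 0 with DESeq2 and 0 with limma voom, beside 0.0% of all genes with edgeR and limma voom and 0.0438% with DESeq2. At an unadjusted p under 0.05 edgeR gave 1 collagen gene, beside 1.82% of all genes. The gene was COL8A1, at 8.03, 7.76 and 7.53 CPM per kb in Acetazolamide, below all 3 Ctrl values. Its log2 fold change was -0.26 (SE 0.10, 95% interval -0.48 to -0.04, adjusted p = 0.999 in edgeR). After TMM scaling the groups did not overlap, with lower values in Acetazolamide, for COL6A2, COL8A1 and COL27A1, beside 2.1% of all genes, and no collagen gene was higher without overlap, beside 3.21%.

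COL27A1 was at 0.283, 0.244 and 0.308 CPM per kb in Acetazolamide, with a log2 fold change of -0.38 (SE 0.18). COL6A2 was at 0.0853, 0.0679 and 0.101, from 9 to 16 counts a library, with a log2 fold change of -0.68 (SE 0.35), and COL8A2, also at low counts, had 0.47 (SE 0.34). Among the abundant genes the log2 fold change was -0.12 (SE 0.09) for COL4A4, -0.14 (SE 0.12) for COL4A5, -0.06 (SE 0.22) for COL4A2 and -0.04 (SE 0.08) for COL12A1. The adjusted p of each of these genes was 0.999 in edgeR. Over the 21 genes 5 log2 fold changes were above 0 and 16 below, with a median of -0.05, against 0.01 over all genes tested. For the 14 genes that reached 300 counts in each library, all 95% intervals lay between a halving and a doubling, that is between -0.75 and 0.57 on the log2 scale.

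For Laminin511-E8 against Ctrl, edgeR and limma voom passed 0 of the 21 collagen genes, beside 0.0% of all genes, and DESeq2 passed 0, beside 0.131%. At an unadjusted p under 0.05 edgeR gave 0 collagen genes, beside 2.78% of all genes, limma voom gave 0, beside 2.74%, and DESeq2 gave COL4A4 and COL5A2, beside 2.65%. Groups did not overlap, with higher values in Laminin511-E8, for COL5A2, beside 4.69% of all genes, and with lower values for COL4A4, COL6A2 and COL9A2, beside 3.96%. COL5A2 was at 8.15, 9.055 and 8.60 CPM per kb with Laminin511-E8, above the Ctrl values given before, with a log2 fold change of 0.22 (SE 0.11). COL4A4 had a log2 fold change of -0.19 (SE 0.09), and its highest Laminin511-E8 value exceeded the lowest Ctrl value before scaling by TMM but not after it. COL27A1, at 0.384, 0.528 and 0.4215 CPM per kb, had 0.33 (SE 0.17), COL6A2 had -0.65 (SE 0.35) and COL4A5 had -0.21 (SE 0.12).

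The other abundant genes were COL12A1 with a log2 fold change of -0.06 (SE 0.08), COL8A1 with 0.02 (SE 0.10) and COL4A2 with 0.00 (SE 0.22), whose sign changed with the scaling. The lowest adjusted p of a collagen gene in this comparison was 1.0 in edgeR. Over the 21 genes 7 log2 fold changes were above 0 and 14 below, with a median of -0.04. The 95% intervals of the 14 abundant genes lay between -0.76 and 0.62 on the log2 scale. This comparison and the former share the Ctrl libraries.

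For Laminin511-E8 against Acetazolamide, 0 of the 21 collagen genes passed with edgeR or limma voom, beside 0.0% of all genes, and 0 with DESeq2, beside 0.119%. In this comparison DESeq2 gave no adjusted p for COL6A2, COL6A3 and COL8A2, so these genes could not pass there. At an unadjusted p under 0.05 edgeR gave 3 collagen genes, beside 2.15% of all genes, and these were COL27A1, COL5A2 and COL8A1. All 3 were higher with Laminin511-E8 without overlap between the groups, beside 3.01% of all genes, and no collagen gene was lower without overlap, beside 3.11%. COL27A1 differed most, with a log2 fold change of 0.71 (SE 0.17, 95% interval 0.33 to 1.10, adjusted p = 1.0 in edgeR). COL8A1 was at 9.11, 8.96 and 9.52 CPM per kb with Laminin511-E8, with a log2 fold change of 0.28 (SE 0.10), and COL5A2, at 7.33, 6.27 and 7.955 in Acetazolamide, had 0.30 (SE 0.11).

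In the same comparison COL9A3, with the same overlap with TCFL5, had a log2 fold change of -0.53 (SE 0.27) and COL4A3 of -0.22 (SE 0.13). The abundant genes COL12A1, COL4A4, COL4A5 and COL4A2 had -0.02 (SE 0.08), -0.07 (SE 0.09), -0.07 (SE 0.12) and 0.06 (SE 0.22). The adjusted p of each was 1.0 in edgeR. Of the 21 genes, 10 log2 fold changes were above 0 and 11 below, with a median of 0.00. The intervals of the 14 abundant genes lay between -0.67 and 0.71 on the log2 scale.

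**Figure D3:**
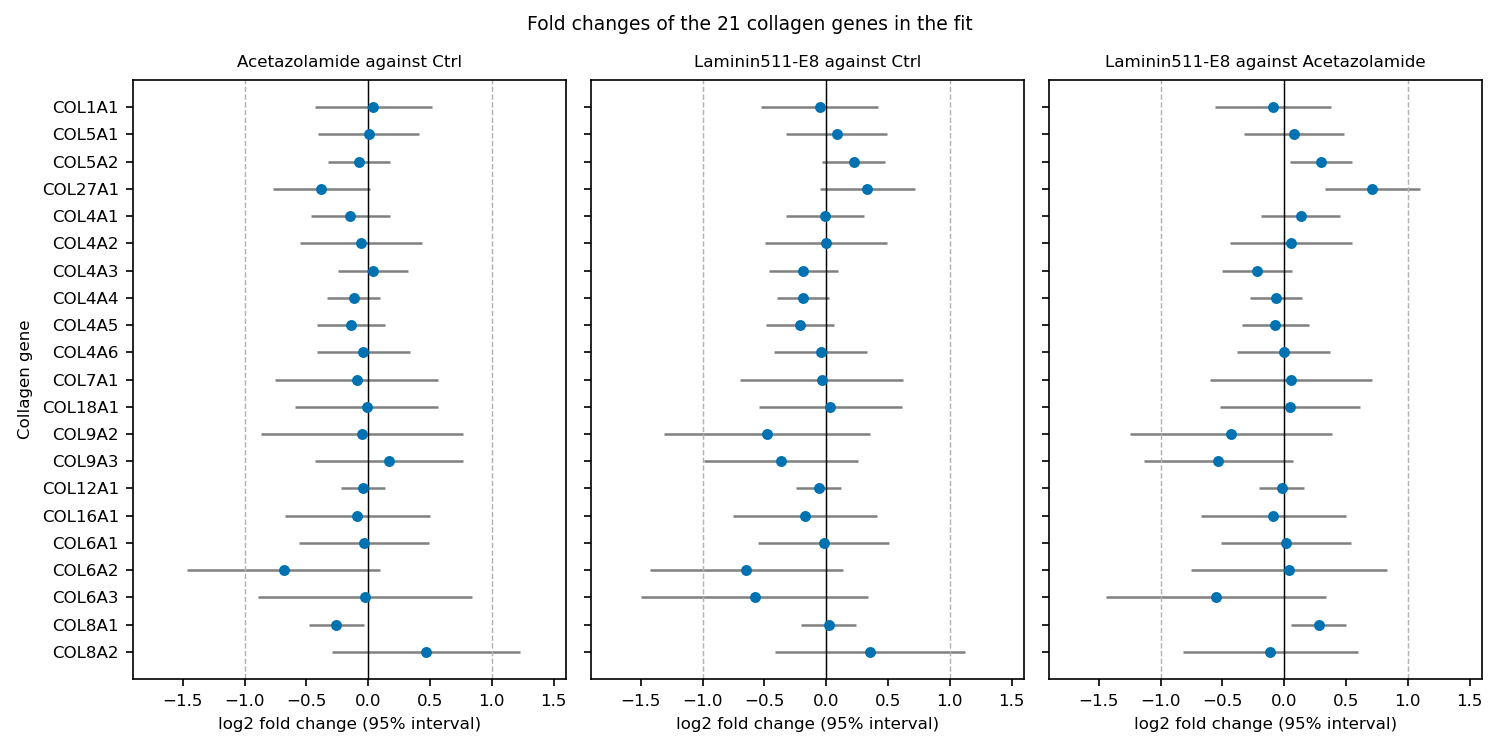
Log2 fold changes (points) with 95% intervals (bars) from edgeR's quasi-likelihood fit for the 21 collagen genes tested (y axis) in the 3 comparisons (panels), with dashed lines at a halving and a doubling. COL8A1 against Ctrl under acetazolamide (-0.26) and COL27A1, COL5A2 and COL8A1 in the comparison of the treatments (0.71, 0.30 and 0.28) have intervals that leave out 0, and none passed after adjustment.

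Within groups the collagen genes varied by library with their GC content. The GC content of the members' transcripts ran from 41.3% to 67.4%, and among the 14 abundant genes 6 were at 58% or more (COL1A1, COL4A2, COL5A1, COL6A1, COL7A1 and COL16A1) and 5 were under 50% (COL4A3, COL4A4, COL5A2, COL8A1 and COL12A1). In Acetazolamide replicate 2 the deviation of the GC-rich genes from their mean over all libraries minus that of the GC-poor genes was -0.44 on the log2 scale, and all genes of that library showed a trend of -0.39 between 45% and 60% GC. In Acetazolamide replicate 3 the difference was 0.39 and the trend 0.47, and in Laminin511-E8 replicate 2 they were 0.28 and 0.33. The difference had the sign of the trend in 9 of 9 libraries. The median SD of the 14 genes within groups was 0.196 on the log2 scale, and 0.0973 once each library's GC trend was taken out. Over all genes with a GC content the median SD fell as well, from 0.266 to 0.153. The SD became smaller in 11 of the 14 genes, a count that is not given here for all genes. In COL7A1 the SD went from 0.44 to 0.14, whereas in COL12A1 it rose from 0.037 to 0.064.

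**Figure D4:**
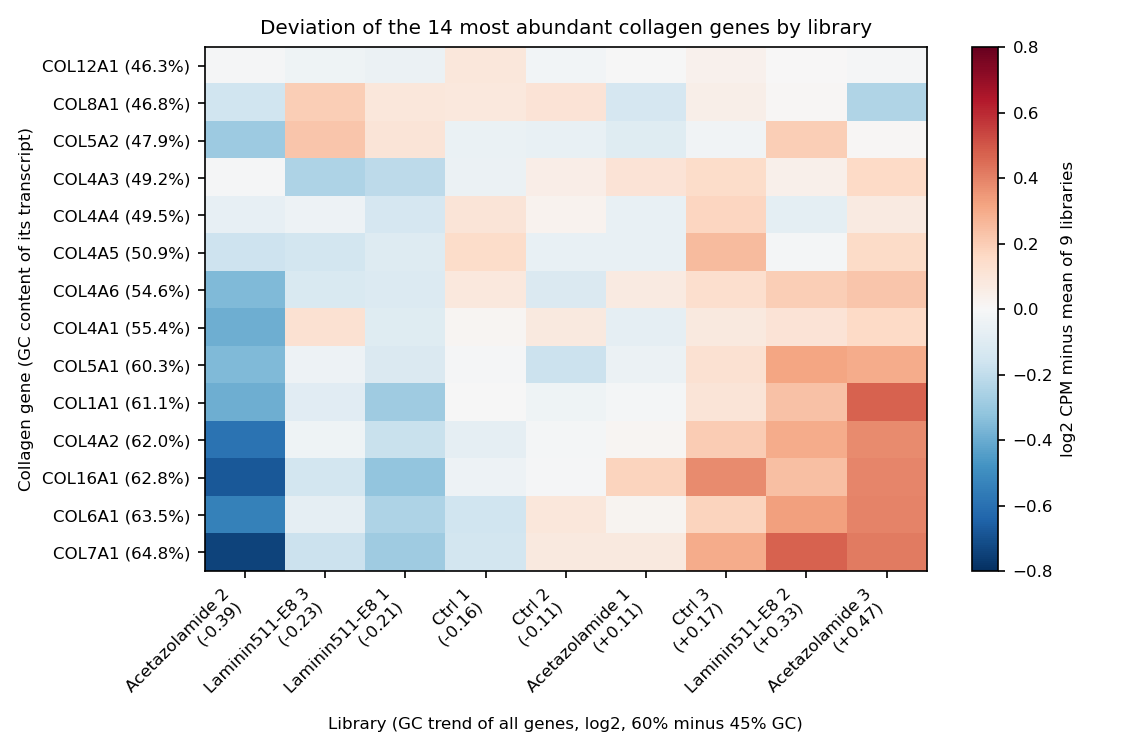
Deviation of the log2 CPM of each of the 14 abundant collagen genes (rows, ordered by GC content from 46.3% to 64.8%) from its mean over 9 libraries (columns, ordered by the GC trend of all genes, in brackets). The GC-rich genes at the bottom go from low in Acetazolamide replicate 2 to high in Acetazolamide replicate 3, whereas COL12A1 at the top hardly moves.

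With the GC trend taken out, 0 collagen genes passed in any comparison in edgeR's test, beside 0.0%, 0.33% and 0.178% of 15737 genes. The lowest adjusted p of a collagen gene was then 0.957 for Acetazolamide against Ctrl (COL8A1, log2 fold change -0.28, SE 0.06), 0.218 for Laminin511-E8 against Ctrl (COL4A4, -0.24, SE 0.06) and 0.12 for Laminin511-E8 against Acetazolamide (COL27A1, 0.78, SE 0.17). At an unadjusted p under 0.05 this fit gave COL4A1, COL4A2, COL4A4, COL4A5, COL8A1 and COL27A1 as lower in Acetazolamide than in Ctrl, beside 2.36% of all genes, and none as higher, beside 1.78%. For Laminin511-E8 against Ctrl it gave COL4A3, COL4A4 and COL4A5 as lower, beside 4.96%, and COL5A2 as higher, beside 2.4%. For Laminin511-E8 against Acetazolamide it gave 6 genes as higher (COL4A1, COL4A2, COL5A1, COL5A2, COL8A1 and COL27A1), beside 2.2%, and COL4A3 as lower, beside 3.01%. The first and the last of these comparisons share the Acetazolamide libraries. Over the 21 genes, the number of log2 fold changes above and below 0 was 2 and 19 in Acetazolamide against Ctrl with the trend taken out, with a median of -0.16 (-0.02 over all genes), in place of 5 and 16 with a median of -0.05. It was 5 and 16 in Laminin511-E8 against Ctrl, with a median of -0.07 (-0.01 over all genes), and 13 and 8 in Laminin511-E8 against Acetazolamide, with a median of 0.04 (0.00 over all genes), in place of 10 and 11. The log2 fold changes of the 4 type IV genes named for acetazolamide were -0.25 (SE 0.08) for COL4A1, -0.18 (SE 0.07) for COL4A2, -0.18 (SE 0.06) for COL4A4 and -0.21 (SE 0.08) for COL4A5. The type IV genes not named there had -0.14 (SE 0.08, COL4A6) and -0.01 (SE 0.09, COL4A3).

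Genes that modify, export, bind and degrade collagen were measured beside the chains, and 0 of those tested passed the edgeR test in any of the 3 comparisons. Of 14 tested genes for the hydroxylation and glycosylation of chains, PLOD2, a lysyl hydroxylase, was at 2116 ± 136.3 CPM and P4HB, a subunit of prolyl hydroxylase, at 689.5 ± 66.6 CPM in Ctrl (SD, n = 3). Of 16 genes for folding and export, the coat protein genes SAR1A and SEC23A were at 236.7 ± 13.15 and 200.9 ± 15.1 CPM. Of 13 genes for propeptide processing and cross-linking, PXDN, the peroxidase that cross-links type IV collagen, was at 277.2 ± 29.4 CPM and the lysyl oxidase LOX at 136.9 ± 14.8 CPM. Of 6 collagen receptor genes, the integrin subunits ITGB1 and ITGA1 were at 1768 ± 120.4 and 117.6 ± 10.2 CPM.

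Among the partners of collagen in the matrix, 22 genes of basement membranes were tested, of which the laminin chains LAMC1 and LAMB1 took the most counts, at 463.2 ± 14.5 CPM and 307.4 ± 11.1 CPM in Ctrl, and 9 genes of the interstitial matrix, of which THBS1 and TGFBI took the most, at 1003 ± 55.9 CPM and 394.8 ± 33.8 CPM. Of 6 genes for degradation, the inhibitor TIMP2 was at 327.8 ± 29.3 CPM and the membrane protease MMP14 at 107.7 ± 9.76 CPM. With the GC trend taken out, NPNT passed in Laminin511-E8 against Ctrl and VCAN in Laminin511-E8 against Acetazolamide, and no gene of the remaining matrix lists did. NPNT, a basement membrane ligand of integrins, was at 11.8 CPM in Ctrl and 8.10 CPM with Laminin511-E8, and VCAN, a large proteoglycan, was at 130.6 CPM with acetazolamide and 169.1 CPM with Laminin511-E8. The epithelial keratin KRT19 passed in both comparisons of Laminin511-E8 in this fit, with 450.2 CPM against 603.9 in Ctrl and 697 in Acetazolamide. None of these calls of NPNT, VCAN and KRT19 was kept when the replicate number was added to the fit as a block, where 0 genes passed in any comparison. KRT19 is 1 of 8 cholangiocyte markers tested, and before the GC trend was taken out all 8 had log2 fold changes below 0 in both comparisons of Laminin511-E8, with medians of -0.28 against Ctrl and -0.23 against Acetazolamide, beside 0.00 over all genes in each, although none passed. The summed level of the cholangiocyte markers was 3376 to 4075 CPM in Ctrl, 3440 to 4211 in Acetazolamide and 2916 to 3340 in Laminin511-E8, and their part in the collagen values was not tested.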

How the data were processed

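RNA was measured in 9 libraries of H69 cells, enriched for poly(A) mRNA. The authors deposited raw counts per gene, for which the submitters' notes list HTSeq 0.11.0, HISAT2 2.2.1, Trimmomatic 0.39 and FastQC 0.11.9 and the build GRCh38. For the strand setting, the annotation release and the rule for reads with more than 1 match, nothing is given in the sources used here. There were 0 rows without a gene and 0 columns without a sample. Totals ran from 12529867 to 39518899 counts a library, so that a count of 0 allows 0.0759 to 0.239 CPM (3 counts, counting error only).

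Groups follow the labels, which call the samples biological replicates. Libraries of a group differed by more than counting error (chi-square over degrees of freedom 4.77 to 90.8). Counts were tested with edgeR 4.0.16 in R 4.3.3 (TMM, filterByExpr, robust quasi-likelihood fit of all 9 libraries) with Benjamini-Hochberg adjustment over 15997 genes at 0.05. All p-values come from these fits across genes. Alternatives were DESeq2 1.42.0, limma 3.58.1 (voom), RLE scaling, 2 other filters, only the 6 libraries compared, a replicate block, removal of the GC trend (local regression, span 0.3, 15737 genes with a GC content) and leaving out each library. The script was tested on simulated data. Levels used the exon union or the longest coding transcript of GENCODE 29, and 61369 of 61541 identifiers had a symbol. Promoter windows came from RefSeq (GRCh38.p14), 1 for each symbol, the first listed.

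The genes, their classes and the partner and marker lists were chosen with earlier results of these data known. Named with tests are, for each comparison, the genes that passed, the 5 collagen genes with the smallest p and the 5 with the highest level over all libraries. Named with levels are those with at least 10 counts in every Ctrl library and the 2 genes of highest CPM in a partner list. The single markers of cell types, the genes that overlap or neighbour a collagen gene and the genes that passed only with the GC trend removed were named after their values were seen. Python 3.11.15, pandas 2.3.3, SciPy 1.17.1 and matplotlib 3.10.9 were used for levels, intervals and plots.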

Additional observations from a re-analysis of the deposited data

How the results depend on the processing

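In all 27 alternatives, 0 collagen genes passed in each of the 3 comparisons. Without each library in turn this count was also 0 to 0, with or without the GC trend. Over all genes the count was 0 in each comparison, and DESeq2 gave 7 (Acetazolamide against Ctrl), 21 (Laminin511-E8 against Ctrl) and 19 (Laminin511-E8 against Acetazolamide). With no filter on low counts it was 3, 5 and 2, and with the GC trend removed 0, 52 and 28. Without 1 library in turn it stayed 0 to 0 in each comparison, and with the GC trend removed as well, an alternative chosen after seeing the data, it was 0 to 1, 2 to 62 and 0 to 31, with 2 in the second comparison without Laminin511-E8 replicate 1, 9 without Ctrl 1, 19 without Laminin511-E8 3, 27 without Ctrl 3 or Acetazolamide 1 and 31 without Laminin511-E8 2, and in the third 0 without Acetazolamide 1 or Laminin511-E8 1 and 9 without Laminin511-E8 2 or 3. With the replicate block it was 0 in each comparison, and with the block and the GC trend removed 0. Libraries with the same number did not deviate together (correlations of -0.649 to 0.238), so the numbers were not read as pairs. The block changed no collagen call at the adjusted threshold, but with the GC trend removed it ended all 52 and 28 calls over all genes. With the block and the GC trend left in, edgeR's unadjusted p for COL8A1 in Acetazolamide against Ctrl was 0.0764 in place of 0.0273. In Laminin511-E8 against Acetazolamide it was 0.0601 in place of 0.0193 for COL8A1 and 0.0567 in place of 0.0252 for COL5A2. For COL27A1 it was 0.00741 in place of 0.00203. How the unadjusted p of all genes moved with the block is not given here, so these shifts cannot be called particular to collagen genes.

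COL12A1's share of the summed Ctrl level was 38.2% to 39.9% without 1 Ctrl library and 30.03% by transcript length. Of 19 Ctrl levels, 16 moved by over 1 SD when transcript length was used. With TMM scaling, or without 1 Ctrl library, 0 did. Of 25 log2 fold changes in up to 27 alternatives, 635 of 672 values kept their sign and 37 changed it. For COL4A2 in Laminin511-E8 against Ctrl the value was -0.0023 with DESeq2, -0.0008 with limma voom, -0.0022 with RLE scaling, -0.0197 with no filter, -0.0061 with the GC trend removed and -0.0084 with the block as well. For COL8A1 in that comparison it was -0.0177 and -0.0187 in the last pair of settings, and for COL12A1 in Laminin511-E8 against Acetazolamide it was 0.0007 with no filter. The fits without 1 library were pooled over those with the GC trend left in and those with it removed. Their values ran from -0.29 to 0.17 for COL4A2 in Acetazolamide against Ctrl. Between the treatments they ran from -0.17 to 0.29 (COL4A2) and -0.14 to 0.0103 (COL4A5). In Laminin511-E8 against Ctrl they ran from -0.15 to 0.0764 (COL4A2) and -0.0635 to 0.0584 (COL8A1). With 3 libraries a group and SEs up to 0.41, the intervals of the collagen genes at low counts, such as COL6A2, COL6A3 and COL9A2, reached past a 2-fold change.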
